A study of Mus musculus with 12 samples.

Results

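The BCL2 family decides at the mitochondrion whether a cell starts apoptosis, and its RNA levels were followed here in mouse B cell acute lymphoblastic leukemia (B-ALL) cells. Members were taken by gene symbol as Bcl2, Bcl2l1, Mcl1, Bax, Bak1, Bcl2l11, Bbc3, Bid, Bad and Pmaip1, and all 10 were among the 12151 genes measured. The cells were pre-B cells grown with IL-7 from the bone marrow of mice aged 6 to 12 weeks and transformed with the BCR-ABL1 retrovirus, after which IL-7 was withdrawn. All 12 libraries carried the Ctnnb1Ex3fl/+ genotype, that is, 1 copy of the β-catenin gene has loxP sites around exon 3. Cre removes this exon and with it the residues that kinases use to send β-catenin to the proteasome, and a stable protein remains.

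The cells first received Cas9 ribonucleoproteins whose guides either had no target (WT) or were directed at both Ikzf1 and Ikzf3 (KO), and lines were grown from single cells. The lines were then transduced with GFP vectors for 4-hydroxytamoxifen (4-OHT)-inducible Cre (Cre-ERT2) or for the receptor part alone (ERT2) and sorted for GFP, which gave 4 groups of 3 libraries. The labels place the assay 1 day after 4-OHT, in a sentence written for ChIP. According to the study's methods, deletion was checked by western blot and several clones of each genotype were used. Which clone each library came from, and whether libraries came from separate cultures, is not given in the sources used here, so p-values measure the spread between these libraries, which may be technical. Without that, the effect of the guides was not separated from differences between clones. In the same way, excision of exon 3 cannot be told apart from other effects of Cre.

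Anti-apoptotic members of the family (BCL2, BCL-XL, MCL1) hold the pore-forming members BAX and BAK1 in check. BH3-only members, such as BIM, BID, PUMA, NOXA and BAD, respond to stress or loss of growth signals and either block the anti-apoptotic members or act on BAX and BAK1 directly. When BAX and BAK1 form pores in the outer mitochondrial membrane, cytochrome c is released and caspases are activated. Developing B cells rely on this balance: BCL2, BCL-XL and MCL1 sustain them at different stages, and BIM removes cells that lose cytokine or receptor signals. Ikaros (Ikzf1) and Aiolos (Ikzf3) are zinc finger factors of the lymphoid lineage that bind DNA at a GGGAA core.

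Values were normalized log2 expression without counts, so sequencing depth is unknown. Whether gene length was taken into account is not known. Levels are therefore compared between groups and not between genes, though the marker sums below weigh genes by their levels. Library medians lay between 9.06 and 9.11 and no 2 libraries of a group held identical values. The 9 B lineage markers used were all present (Cd79a, Cd79b, Pax5, Ebf1, Vpreb1, Igll1, Rag1, Il7r and Dntt). No T lineage marker (0 of 6) or erythroid marker (0 of 4) was among the genes analysed. Of the others, 2 of 6 myeloid markers, 1 of 3 NK markers and 1 of 4 genes of the stromal list (Pecam1) were. Ikzf3 RNA was lower in the libraries labelled KO (log2 means 10.98 against 11.63 in ERT2), whereas Ikzf1 RNA was higher (14.75 against 13.74). An RNA level does not report on protein after a frameshift, so Ikzf1 RNA does not check the label. Ctnnb1 RNA had group means of 12.44 and 12.51 in WT (ERT2, then Cre-ERT2) and of 12.62 and 12.75 in KO.

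Across the 4 groups, Bcl2 and Mcl1 moved most among the members. Bcl2 spanned 1.62 log2 units between its lowest and highest group mean, a 3.08-fold range, which put it at percentile 99.0 of all genes. Mcl1 spanned 0.55, Bcl2l11 0.44 and Bid 0.33. The other members spanned between 0.055 (Bad) and 0.22 (Bbc3 and Bax), beside a median span of 0.16 over all genes. Both genes that moved most encode anti-apoptotic proteins, and both were lower in KO than in WT.

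**Figure D1:**
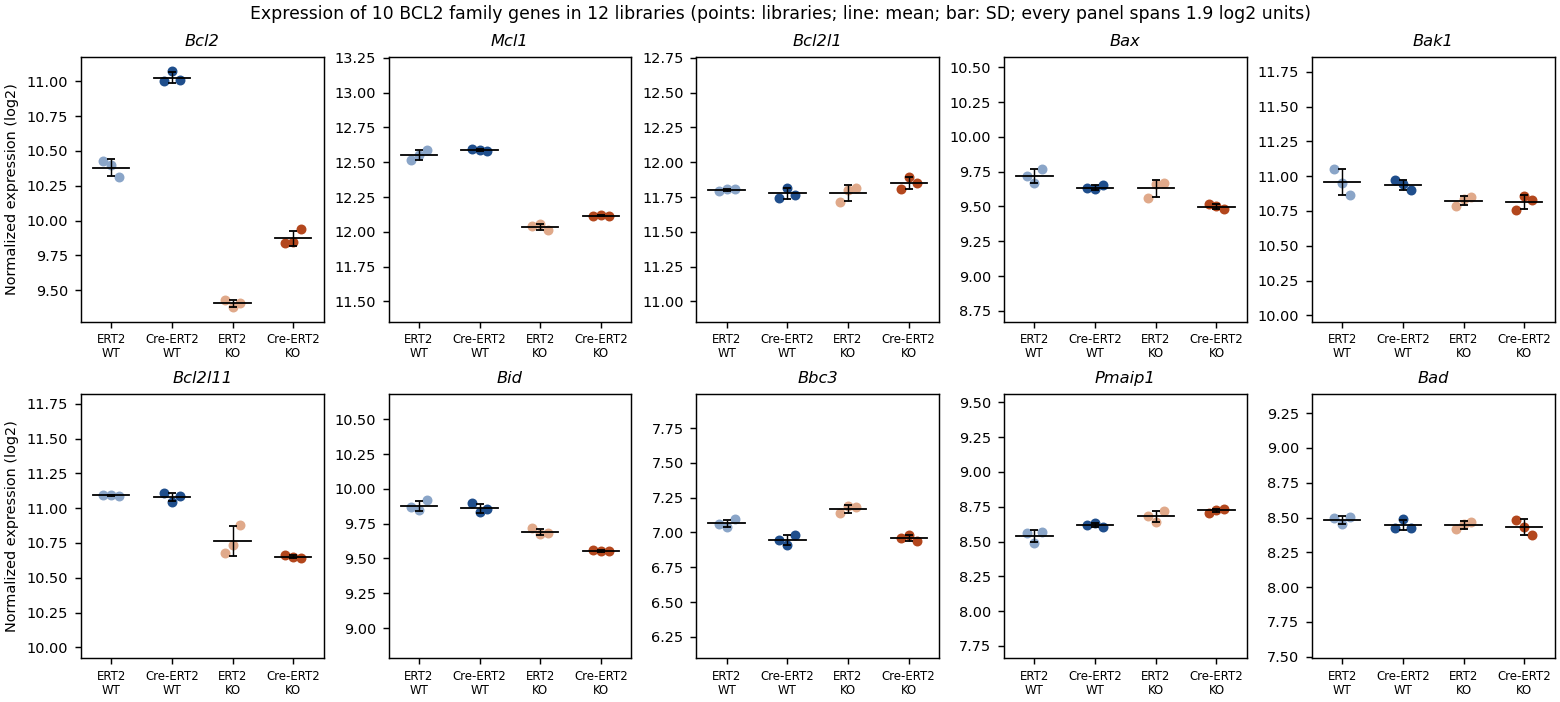
Normalized log2 expression (y axis, a window of 1.9 log2 units in every panel) of the 10 BCL2 family genes by group (x axis). Points are libraries (3 per group), lines are group means and bars are SD. Bcl2 separates all 4 groups, with means from 9.40 to 11.03, Mcl1 separates KO from WT, and the group means of Bcl2l1 and Bad span 0.077 and 0.055.

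β-catenin activation (Cre-ERT2 against ERT2) changed 2 of 10 members in WT cells (limma, adjusted p under 0.05 over all genes), beside 11.9% of all genes. Bcl2 rose, as did 5.93% of all genes, and Bbc3 fell, as did 5.95%. In KO cells 5 of 10 members changed, beside 12.6% of all genes. Of these, 2 rose (Bcl2 and Mcl1), beside 7.27% of all genes, and 3 fell (Bbc3, Bid and Bax), beside 5.33%. The libraries of the groups compared did not overlap for 4 members in WT, beside 31.1% of all genes, and for 6 in KO, beside 28.3%. The median change of the members was -0.020 in WT and -0.012 in KO, and the median over all genes was 2.2e-05 and -0.00041.

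Most genes differed between KO and WT libraries, and the members' count has to be read against that. In ERT2 cells 8 of 10 members passed the test, beside 59.0% of all genes, of which 6 were lower and 2 higher in KO. In Cre-ERT2 cells 7 of 10 passed, beside 58.9% of all genes, of which 6 were lower and 1 higher. Of all genes, 29.3% were lower and 29.8% higher in the first comparison, and 28.6% were lower and 30.4% higher in the second. The members' median was -0.11 in ERT2 and -0.13 in Cre-ERT2, with medians over all genes of 0.0016 in both. Libraries did not overlap for 7 members in each comparison, beside 65.5% and 63.6% of all genes. Higher genes made up 50.4% of all calls in ERT2 and 51.5% in Cre-ERT2, and 37.6% and 38.4% after each library was centred on its median.

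The effect of β-catenin differed between KO and WT for 0 of 10 members (limma), beside 4.53% of all genes. An unadjusted p under 0.05 was found for 4 of 10 members, beside 2101 of 12151 genes. These 4 were Bcl2, Bid, Bbc3 and Bcl2l1, with adjusted p-values between 0.081 and 0.27. The KO comparisons share no libraries with each other, but each shares 1 group with each β-catenin comparison.

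**Figure D2:**
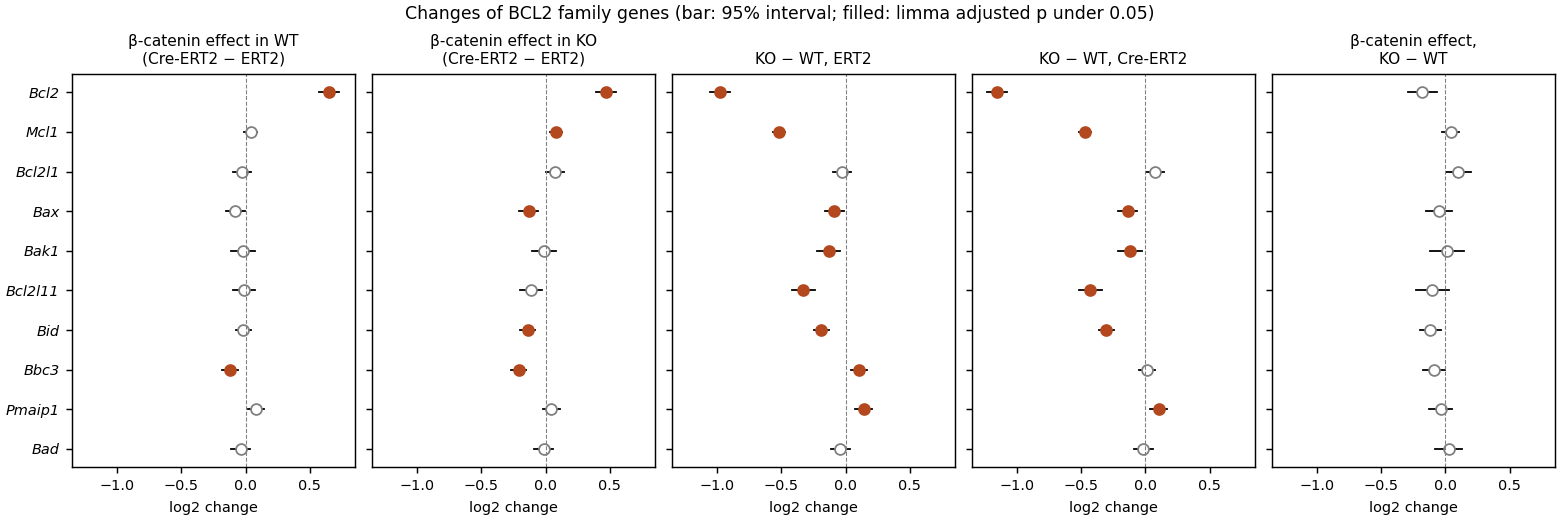
Log2 change (x axis) of each member (y axis) in 5 comparisons, with 95% intervals as bars. Filled points passed the limma test at an adjusted p under 0.05. Bcl2 lies at 0.65 and 0.47 for β-catenin activation and at -0.97 and -1.15 for KO against WT, and no point is filled in the last panel.

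Bcl2, the founding anti-apoptotic member (GRCm38 chr1:106538178-106714274, minus strand), was measured at 10.43, 10.40 and 10.31 in ERT2 WT libraries and at 11.0004, 11.07 and 11.01 in Cre-ERT2 WT libraries. In KO it was measured at 9.43, 9.38 and 9.41 with ERT2 and at 9.84, 9.85 and 9.94 with Cre-ERT2. The 4 groups did not overlap, and their order from high to low was Cre-ERT2 WT, ERT2 WT, Cre-ERT2 KO and ERT2 KO. β-catenin activation raised Bcl2 by 0.65 ± 0.036 (SE) in WT, 1.57-fold (limma, adjusted p = 2.08e-07). In KO it raised Bcl2 by 0.47 ± 0.036, 1.38-fold (adjusted p = 2.54e-06). KO cells held less Bcl2 RNA than WT cells both with ERT2 (-0.97, 1.97-fold lower, adjusted p = 1.62e-10) and with Cre-ERT2 (-1.15, 2.22-fold lower, adjusted p = 3.04e-11). The difference between both β-catenin effects was -0.18 (95% interval -0.29 to -0.066, limma adjusted p = 0.081), so a weaker rise in KO missed the threshold. Without the third Cre-ERT2 KO library the difference was -0.21 (adjusted p = 0.033), and it passed.

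In bulk RNA, fewer cells that express a gene and less RNA per cell cannot be told apart. The summed B lineage markers were lower in KO as well (log2 sums of 16.27 to 16.31, against 16.68 to 16.72 in WT). By group means, 8 of the 9 were lower in both KO comparisons. Cd79a, whose values weigh most in the sum, lay at 14.31 against 15.10 in ERT2. Rag1 was higher in KO (11.80 against 11.47 in ERT2, 11.66 against 11.32 in Cre-ERT2). Pax5 (13.74 against 13.77) and Ebf1 (13.96 against 14.00) differed little in ERT2. The summed myeloid markers were higher in KO (8.45 to 8.76 against 7.57 to 7.62), which Lyz2 carried (8.40 against 7.41 in ERT2), whereas Itgam was lower (4.51 against 4.66), and Csf1r, Mpo, Elane and Cebpa were not among the genes analysed. Of the stromal list only Pecam1 was among the genes analysed, and Col1a1, Col1a2 and Pdgfrb were not. Pecam1 was lower in KO (9.74 to 10.13 against 10.72 to 11.09), and it alone does not report on stromal cells. The NK marker Klrb1c stayed between 2.40 and 2.43. The part of these differences in the KO results was not tested.

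Mcl1, an anti-apoptotic protein with a short half-life (gene at chr3:95658788-95663176, plus strand), lay at 12.52, 12.55 and 12.59 in ERT2 WT and at 12.60, 12.59 and 12.58 in Cre-ERT2 WT. The KO libraries lay at 12.04, 12.05 and 12.01 with ERT2 and at 12.11, 12.12 and 12.11 with Cre-ERT2. WT groups overlapped with each other, and every KO library was below every WT library. The KO change of Mcl1 was -0.52 ± 0.022 (SE) in ERT2, 1.43-fold lower (limma, adjusted p = 4.91e-10). In Cre-ERT2 it was -0.47, 1.39-fold lower (adjusted p = 1.14e-09). Both calls were kept at each of the 23 alternative settings. The rise with β-catenin in KO was small (0.081 ± 0.022, adjusted p = 0.029). Leaving out any of 5 libraries (ERT2 KO 1 and 3, or any Cre-ERT2 KO library) ended that call, with changes of 0.069 to 0.083 and adjusted p-values of 0.053 to 0.11. It also ended with quantile normalization (0.064, adjusted p = 0.095) and with the compared libraries alone (adjusted p = 0.069), and 13 of the 23 settings kept it. In WT the change was 0.038 (adjusted p = 0.32).

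Because Bcl2 and Mcl1 fell together in KO, the stretch of 250 bases before the RefSeq start of each is shown, on GRCm38.p6. These starts differ from those of the gene positions given above, which are from GENCODE. Capitals mark the Ikaros core GGGAA or, on the other strand, TTCCC. The Bcl2 stretch is chr1:106714291-106714540, minus strand, and the Mcl1 stretch is chr3:95658471-95658720, plus strand. No annotated exon overlapped either.
Bcl2: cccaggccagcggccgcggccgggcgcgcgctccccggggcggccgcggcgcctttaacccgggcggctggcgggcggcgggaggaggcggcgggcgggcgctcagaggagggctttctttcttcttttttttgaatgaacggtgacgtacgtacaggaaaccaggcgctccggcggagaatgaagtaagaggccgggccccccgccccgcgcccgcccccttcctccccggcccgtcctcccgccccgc
Mcl1: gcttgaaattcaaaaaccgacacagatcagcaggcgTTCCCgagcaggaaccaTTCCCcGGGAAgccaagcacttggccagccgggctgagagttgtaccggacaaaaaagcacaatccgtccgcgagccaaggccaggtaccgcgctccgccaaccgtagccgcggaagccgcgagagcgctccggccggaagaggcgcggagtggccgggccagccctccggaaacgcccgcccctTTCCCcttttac
The Bcl2 stretch held 0 matches and the Mcl1 stretch 4, whose nearest and farthest lay 12 and 214 bases before the RefSeq start. The core is short, and 62.7% of 32851 RefSeq promoters of 300 bases (250 before the start and 50 after it) held it. Promoters were found for 9 of the 10 members (not for Pmaip1), with 15 promoters in all, of which 9 held the core. By gene, Mcl1, Bax, Bak1, Bcl2l1, Bbc3 and Bad had it in at least 1 promoter, and Bcl2, Bcl2l11 and Bid had it in none. The TCF/LEF core CTTTGA was found in 1 of the 15 promoters, that of Bax, beside 16.0% of all promoters. The STAT pattern TTCNNNGAA was found in 0 of the 15, beside 8.30%. The E-box CACGTG was found in 2 of the 15, that of Bax and 1 of Bbc3, beside 7.15%. Both strands were searched, and a match is a run of letters and not a bound site.

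Bcl2l1, which encodes BCL-XL (chr2:152780668-152831728, minus strand), stayed between 11.79 and 11.81 in ERT2 WT, 11.75 and 11.82 in Cre-ERT2 WT, 11.71 and 11.82 in ERT2 KO and 11.81 and 11.90 in Cre-ERT2 KO. Libraries overlapped in all 4 comparisons, and no comparison passed the test. With β-catenin the change was -0.027 in WT (95% interval -0.096 to 0.042) and 0.075 in KO (0.0060 to 0.14, adjusted p = 0.16). KO against WT gave -0.025 in ERT2 and 0.077 in Cre-ERT2 (adjusted p = 0.053). The latter passed without the second Cre-ERT2 WT library, the first ERT2 KO library or the first Cre-ERT2 KO library (adjusted p of 0.026 to 0.030), with quantile normalization (0.12, adjusted p = 0.0067) and among genes with a mean of at least 8 (adjusted p = 0.044). The ERT2 change turned to 0.021 with quantile normalization. The gene-level value joins the long and short isoforms, which have opposite roles.

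Bax, a pore-forming protein that moves to mitochondria on activation (chr7:45461697-45466898, minus strand), lay at 9.71, 9.67 and 9.77 in ERT2 WT and at 9.63, 9.62 and 9.65 in Cre-ERT2 WT. In KO it lay at 9.56, 9.66 and 9.67 with ERT2 and at 9.51, 9.50 and 9.48 with Cre-ERT2. The Cre-ERT2 KO libraries were below all others. With β-catenin, Bax fell in KO by 0.13 ± 0.034 (SE) on the log2 scale (limma, adjusted p = 0.022), and in WT the change was -0.081 (adjusted p = 0.15). KO against WT gave -0.14 in Cre-ERT2 (adjusted p = 0.0036) and -0.086 in ERT2 (adjusted p = 0.043). The ERT2 groups overlapped, and that call was lost in 8 of the 12 fits that left out 1 library (ERT2 WT 1 or 3, any Cre-ERT2 WT library, ERT2 KO 1, Cre-ERT2 KO 1 or 2; -0.087 to -0.051, adjusted p of 0.050 to 0.19). It was also lost with the compared libraries alone (adjusted p = 0.094) and a pseudocount of 100 (-0.077, adjusted p = 0.051), and 10 of the 23 settings kept it. The call with β-catenin in KO was lost in 4 (ERT2 KO 2 or 3, Cre-ERT2 KO 2 or 3; adjusted p of 0.054 to 0.089) and with the compared libraries alone (adjusted p = 0.073).

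Bak1 encodes the pore-forming protein that resides in the mitochondrial membrane (chr17:27019810-27029009, minus strand). It lay between 10.87 and 11.05 in ERT2 WT and between 10.90 and 10.97 in Cre-ERT2 WT. KO libraries ranged from 10.79 to 10.85 with ERT2 and from 10.76 to 10.86 with Cre-ERT2, all below WT. The KO changes were -0.13 ± 0.043 (SE) in ERT2 (limma, adjusted p = 0.018) and -0.12 in Cre-ERT2 (adjusted p = 0.026). With β-catenin Bak1 changed by -0.020 in WT and -0.0094 in KO, and neither passed. The KO call in ERT2 was lost without ERT2 WT 1 or ERT2 KO 1 (-0.085 and -0.11), and that in Cre-ERT2 without Cre-ERT2 WT 1 or 2 or Cre-ERT2 KO 1 (-0.12 to -0.094). Bak1 lies inside Ggnbp1 on the opposite strand over 9200 bases. The library kit keeps strand, but whether strand was used in counting is not given in the sources used here, so reads of both may be mixed. The same limit applies to Bcl2, which overlaps the antisense gene D630008O14Rik on the opposite strand over 33103 bases. Bcl2 also overlaps Gm37053 (2087 bases) and Mir3473f (136 bases) on the same strand. Smaller opposite-strand overlaps join Bid with Bcl2l13 (913 bases) and Gm17812 (318 bases), and Bad with Gpr137 (620 bases). On the same strand, Bax overlaps Gm45808 (915 bases) and Bid overlaps Gm44260 (2094 bases).

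Bcl2l11 encodes BIM, a BH3-only protein that binds all anti-apoptotic members (chr2:128126038-128162547, plus strand). It lay at 11.10, 11.09 and 11.09 in ERT2 WT and at 11.11, 11.05 and 11.09 in Cre-ERT2 WT. KO libraries lay lower, at 10.68, 10.73 and 10.88 with ERT2 and at 10.66, 10.65 and 10.64 with Cre-ERT2. The KO change was -0.33 ± 0.041 (SE) with ERT2 (1.26-fold lower, limma adjusted p = 1.66e-05). With Cre-ERT2 it was -0.43 (1.35-fold lower, adjusted p = 1.38e-06). β-catenin gave -0.013 in WT and -0.11 in KO (adjusted p = 0.099). The latter passed without the first ERT2 KO library (-0.16, adjusted p = 0.024).

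Bid, which links the death receptors to mitochondria once caspase-8 has cut it (chr6:120891930-120916853, minus strand), lay at 9.87, 9.85 and 9.92 in ERT2 WT and at 9.89, 9.83 and 9.85 in Cre-ERT2 WT. It lay at 9.72, 9.68 and 9.68 in ERT2 KO and at 9.56, 9.55 and 9.55 in Cre-ERT2 KO. WT groups overlapped, KO was below WT, and within KO the Cre-ERT2 libraries were the lower. The KO change was -0.19 ± 0.027 (SE) in ERT2 (limma, adjusted p = 5.39e-05) and -0.31 in Cre-ERT2 (adjusted p = 5.91e-07). With β-catenin Bid fell in KO (-0.14, adjusted p = 0.0043), and in WT it changed by -0.020 (adjusted p = 0.72). The difference between these effects was -0.12 (95% interval -0.20 to -0.037, adjusted p = 0.11).

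Bbc3 encodes PUMA, a p53 target among the BH3-only proteins (chr7:16308393-16318205, plus strand). Its libraries lay at 7.06, 7.04 and 7.10 in ERT2 WT, at 6.94, 6.91 and 6.98 in Cre-ERT2 WT, at 7.14, 7.19 and 7.18 in ERT2 KO and at 6.96, 6.98 and 6.94 in Cre-ERT2 KO. Both Cre-ERT2 groups lay below both ERT2 groups. β-catenin lowered Bbc3 in WT (-0.12 ± 0.028, SE, limma adjusted p = 0.014) and in KO (-0.21, adjusted p = 0.00026). The WT call was lost without ERT2 WT 3 (-0.10, adjusted p = 0.054) or Cre-ERT2 WT 2 (-0.10, adjusted p = 0.061). In ERT2 cells KO was higher by 0.10 (adjusted p = 0.0061), a call that was lost with quantile normalization (0.034, adjusted p = 0.33). In Cre-ERT2 cells the KO change was 0.014 and turned to -0.020 with centred libraries and to -0.083 with quantile normalization (adjusted p = 0.026), so its direction depended on the scaling.

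Pmaip1 encodes NOXA, which binds MCL1 and directs it to degradation. Its libraries lay at 8.56, 8.49 and 8.57 in ERT2 WT and at 8.62, 8.64 and 8.60 in Cre-ERT2 WT. In KO they lay at 8.68, 8.64 and 8.72 with ERT2 and at 8.71, 8.73 and 8.74 with Cre-ERT2. Each KO group was above its WT group, by 0.14 ± 0.030 (SE) in ERT2 (limma, adjusted p = 0.0014) and by 0.10 in Cre-ERT2 (adjusted p = 0.0097). The Cre-ERT2 call was lost with centred libraries (0.070, adjusted p = 0.060) and with quantile normalization (0.070, adjusted p = 0.056). β-catenin gave 0.080 in WT (adjusted p = 0.11) and 0.043 in KO. Bad, a BH3-only protein held inactive by growth factor signaling (chr19:6941861-6951899, plus strand), ranged from 8.37 to 8.51 over all 12 libraries, with changes between -0.040 and -0.015, and passed in no comparison.

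Differences between 2 members within a library do not change when a constant is added to all log2 values of that library. Quantile normalization can change them, and the ratios were not recomputed with it. Whether gene length was taken into account is not known, so only the change of such a log2 ratio between groups is read. Bax over Bcl2 changed by -0.73 with β-catenin in WT and by -0.60 in KO, and KO against WT gave 0.89 in ERT2 and 1.02 in Cre-ERT2. Bcl2l11 over Bcl2 changed by -0.66 and -0.58 with β-catenin, and by 0.65 and 0.72 with KO. For both ratios the groups did not overlap in any of the 4 comparisons.

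The ratios over Mcl1 moved less. Bak1 over Mcl1 was higher in KO by 0.38 in ERT2 and 0.35 in Cre-ERT2. It changed by -0.057 with β-catenin in WT, where libraries overlapped, and by -0.090 in KO, where they did not. Bcl2l11 over Mcl1 was higher in ERT2 KO than in ERT2 WT by 0.19, differed by 0.045 between the Cre-ERT2 groups, and changed by -0.051 (overlapping) and -0.19 with β-catenin. Bcl2 over Bcl2l1 changed by 0.67 and 0.39 with β-catenin and by -0.95 and -1.23 with KO. In all, groups did not overlap in 18 of 20 tests of 5 ratios, each with an exact two-sided permutation p of 0.1, the smallest that 3 against 3 libraries can give. The share for ratios of other gene pairs was not computed, so whether 18 of 20 is unusual is not known. Single genes did not overlap for 65.5% and 63.6% of all genes in the KO comparisons, and for 31.1% and 28.3% with β-catenin. The change of 0.045 in Bcl2l11 over Mcl1 counts among the 18, though the pooled SD was 0.067. The ratios share members and are not independent of the single-gene results.

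**Figure D3:**
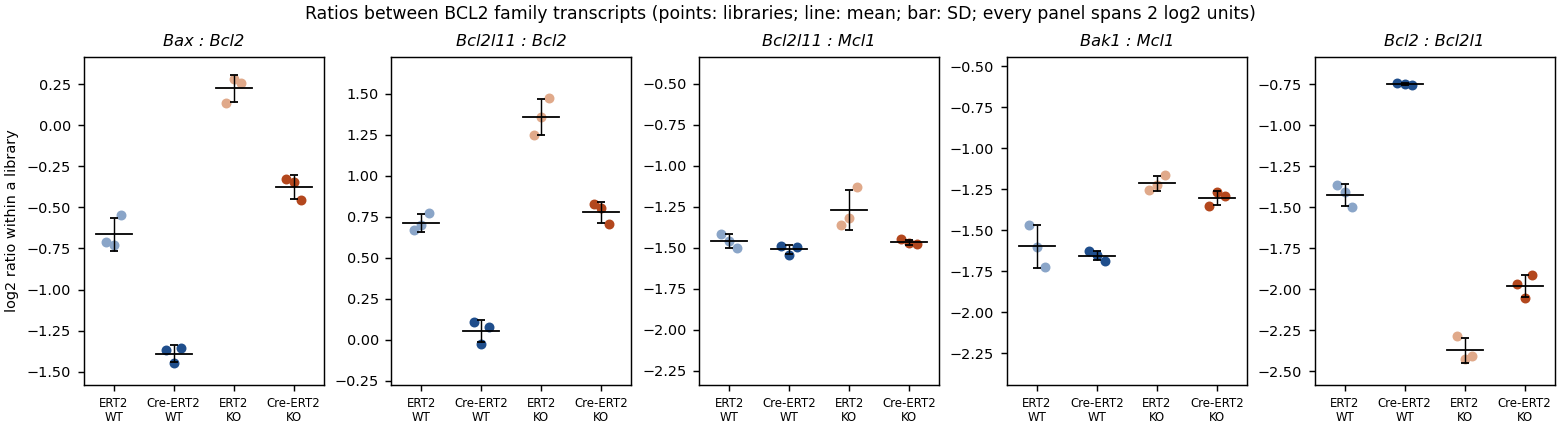
Log2 ratio of 2 members within a library (y axis, a window of 2 log2 units in every panel) by group (x axis). Points are libraries, lines are group means and bars are SD. Bax over Bcl2 is lowest in Cre-ERT2 WT (mean -1.39) and highest in ERT2 KO (mean 0.23), and Bcl2 over Bcl2l1 shows the reverse order (means -0.75 and -2.37).

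The wider pathway was followed with 62 further genes, of which 53 were among the genes analysed. β-catenin raised 3 and lowered 4 of the 53 in WT, beside 11.9% of all genes called, and raised 3 and lowered 7 in KO (limma), beside 12.6%. In KO against WT, 20 were higher and 17 lower in ERT2, beside 29.8% and 29.3% of all genes, and 18 were higher and 20 lower in Cre-ERT2, beside 30.4% and 28.6%. The median changes were -0.010, -0.015, 0.020 and -0.0017. The shares called of each list below stand beside the same 59.0% of all genes in ERT2 and 58.9% in Cre-ERT2. Of 12 transcription factors known to act on members, 12 passed in ERT2 (6 higher, 6 lower) and 11 in Cre-ERT2 (5 higher, 6 lower). Of the 8 genes of the apoptosome and caspases, 5 passed in ERT2 (3 higher, 2 lower) and 4 in Cre-ERT2 (2 higher, 2 lower). IAP proteins, which restrain caspases, and their antagonists had 1 higher and 3 lower of 7 in both.

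Smaller lists went in both directions as well. The mitochondrial channel and DNA fragmentation list had 3 higher and 2 lower of 7 in ERT2 KO and 3 higher and 3 lower in Cre-ERT2 KO. The death receptor branch had 1 higher and 2 lower of 6 in each. For MCL1 protein turnover (Usp9x, Huwe1, Fbxw7 and Tpt1) it was 1 higher and 1 lower of 4 in each. Bok, the other pore-forming gene, was higher in KO (0.48 and 0.37) and rose with β-catenin in WT (0.23, limma adjusted p = 0.0034). With β-catenin in KO it changed by 0.12 (adjusted p = 0.092), and the difference between these effects was -0.11 (adjusted p = 0.39).

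**Figure D4:**
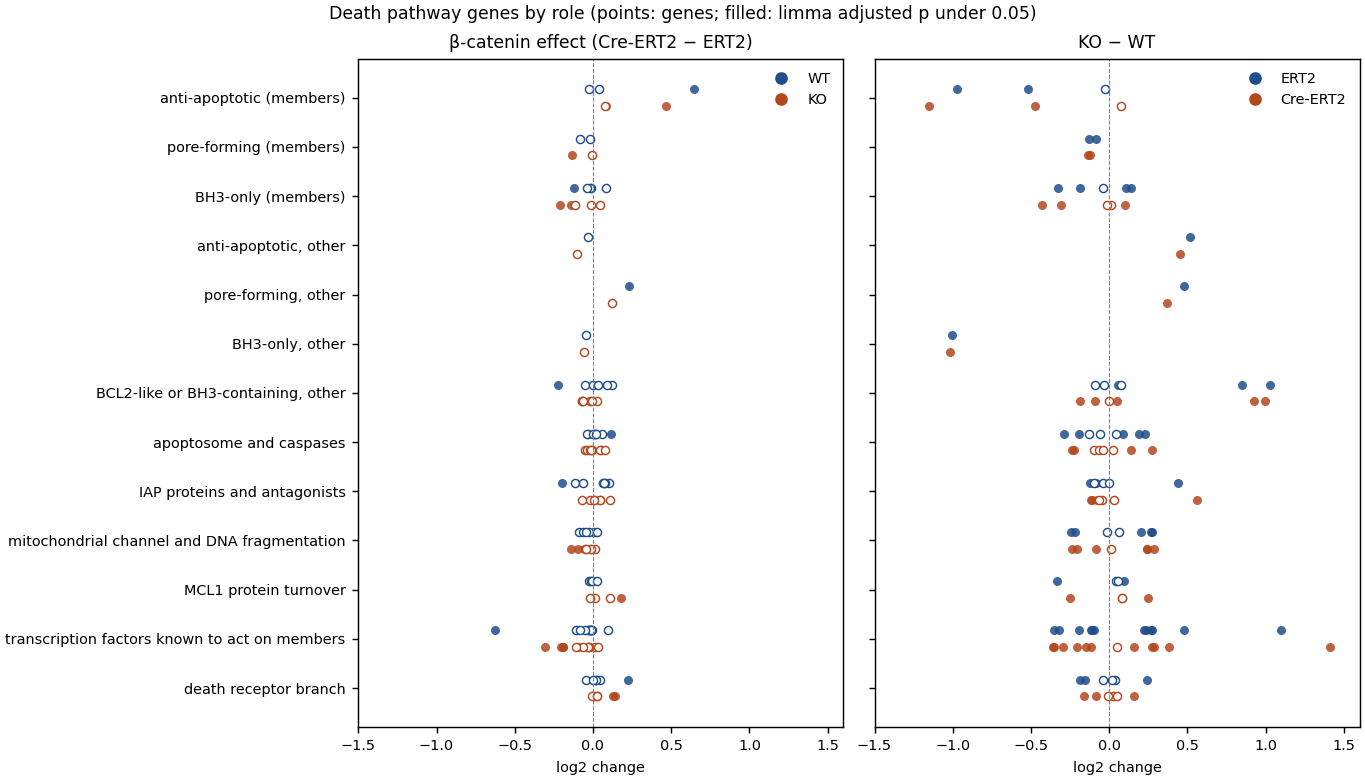
Log2 changes (x axis) of the members and of 53 further death pathway genes, by role (y axis). The left panel shows β-catenin activation in WT and KO and the right panel KO against WT in ERT2 and Cre-ERT2; points are genes, filled where the limma adjusted p was under 0.05. Most points of the left panel lie near 0, with Bcl2 (0.65) and Myc (-0.62) at its edges in WT, and the right panel runs from Bcl2 (-1.15) to Myc (1.41).

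Some relatives of the members outside the set moved in KO too, and those named here passed with a change of at least 0.5. Of 6 other BCL2-like or BH3-containing genes, 3 were higher and 0 lower in ERT2, beside 59.0% of all genes called. In Cre-ERT2, 3 of the 6 were higher and 2 lower, beside 58.9%. Bmf, a BH3-only gene, lay at 8.95, 8.95 and 8.99 in ERT2 WT and at 8.07, 7.85 and 7.95 in ERT2 KO. The KO change was -1.01 ± 0.045 (SE) in ERT2 (limma, adjusted p = 9.11e-10) and -1.02 in Cre-ERT2. Bcl2l2, which encodes the anti-apoptotic BCL-w, lay at 7.77, 7.86 and 7.81 in ERT2 WT and at 8.32, 8.37 and 8.31 in ERT2 KO. Its direction was the opposite of that of Bcl2 and Mcl1, with KO changes of 0.52 (adjusted p = 3.73e-07) and 0.45 (adjusted p = 1.34e-06).

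Bnip3 and Bnip3l, BH3-containing genes known for mitophagy and the response to hypoxia, were higher in KO. Bnip3 went from group means of 12.79 to 13.63 in ERT2 (0.85, limma adjusted p = 1.22e-09) and from 12.56 to 13.56 in Cre-ERT2 (1.00). Bnip3l went from 11.93 to 12.95 (1.02) and from 12.05 to 12.98 (0.93). Htra2, a mitochondrial protease that counters IAP proteins, was higher by 0.44 and 0.56. With β-catenin in WT, Bnip3 fell (-0.22, adjusted p = 0.0024) and so did Htra2 (-0.20, adjusted p = 0.0056). In KO the changes were -0.070 and -0.071, and neither passed.

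Of the factors, Myc lay at 12.22, 12.22 and 12.20 in ERT2 WT and at 11.56, 11.62 and 11.58 in Cre-ERT2 WT, and between 13.30 and 13.31 in ERT2 KO and 12.99 and 13.01 in Cre-ERT2 KO. Its group means thus ran in the reverse order of those of Bcl2, and a link between both genes was not tested. β-catenin lowered Myc in WT (-0.62) and in KO (-0.31), and Myc was higher in KO by 1.097 and 1.41 (limma, adjusted p of 3.11e-07 or less). Foxo1, a factor that activates Bcl2l11 when growth signals fade, fell with β-catenin in KO (-0.19, adjusted p = 0.0013) and changed by -0.010 in WT. Its KO changes were -0.12 (adjusted p = 0.0067, lost with quantile normalization at -0.063) and -0.30. Ddit3, which encodes the stress factor CHOP, fell with β-catenin in KO (-0.19, adjusted p = 0.00048) and changed by -0.016 in WT.

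**Figure D5:**
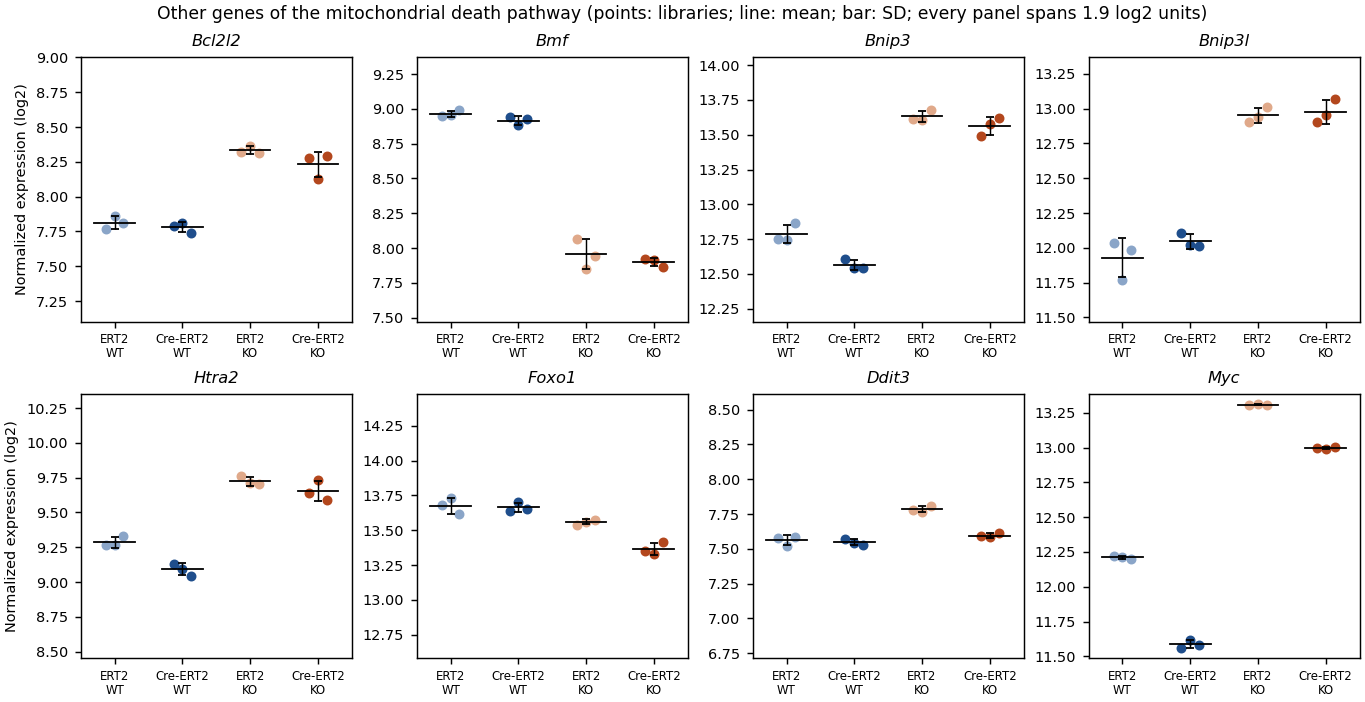
Normalized log2 expression (y axis, a window of 1.9 log2 units in every panel) of 8 further genes of the mitochondrial death pathway by group (x axis). Points are libraries, lines are group means and bars are SD. Bmf is about 1 unit lower in KO (-1.01 and -1.02), Bnip3, Bnip3l, Bcl2l2 and Htra2 are higher, and Myc is lower with Cre-ERT2 and higher in KO.

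The genes whose 12 values ran most like those of Bcl2 and Mcl1 were sought among 1267 genes with a span of at least 0.5. For Bcl2 these were Rnf157, a ubiquitin ligase gene (Pearson r = 0.997), Smarca4, which encodes the BRG1 subunit of chromatin remodeling complexes (r = 0.996), and Apobec1, a cytidine deaminase gene (r = 0.994). Rnf157 had group means of 12.39 and 12.97 in WT and of 11.41 and 11.85 in KO, in the same order as Bcl2. For Mcl1 they were Tnfsf8, which encodes the CD30 ligand (r = 0.998), Tgtp1, an interferon-inducible GTPase gene (r = 0.996), and Il2ra, the IL-2 receptor α chain (r = 0.996). Il2ra fell far more than Mcl1, from group means of 11.49 and 11.88 in WT to 8.12 and 8.52 in KO. The 12 points of each correlation form 4 groups, so r describes mainly the group means.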

How the data were processed

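RNA (polyA selected, KAPA Stranded mRNA-Seq) of 12 libraries was sequenced by the authors, and Salmon 1.4.0, STAR 2.7.6 and DESeq2 1.30.1 are named in the submitters' processing notes, with mm10 (GRCm38) as genome. The deposited table holds normalized log2 values per gene, made by the authors; the transformation and any filter are not given in the sources used here. It holds no counts, so depth is unknown, no count test was possible, and fold changes of low genes may be understated. Nothing else was changed before testing.

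limma 3.58.1 (R 4.3.3) was fitted to all 12151 genes and 12 libraries as 4 group means, with a mean-dependent prior and Benjamini-Hochberg adjustment over all genes; a change passed at an adjusted p under 0.05. The script was tested on simulated data. Single values and ratios were compared by exact two-sided permutation tests. Named genes were the 10 members, pathway genes that passed with a change of at least 0.5 or passed the test of the difference between β-catenin effects, the 3 genes most like each member with a span of at least 0.5, and Ikzf1, Ikzf3, Ctnnb1 and Myc; Bok was added as the one gene of its list. The members and lists were chosen with earlier results of these data known. Alternatives were other scalings, pseudocounts of 1 and 100, a mean of at least 8, an adjusted p under 0.01, a minimum fold of 1.1 (treat), a replicate block, other priors, the compared libraries alone and leaving out each library. Sequences came from RefSeq promoters (GRCm38.p6). Protein sequences were not used here. 1 gene of the B lineage marker list is not reported here and was left out of its sum.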

Additional observations from a re-analysis of the deposited data

Results flagged for a closer look

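In 3 pathway genes the effect of β-catenin differed between KO and WT by the test of the difference itself (limma over all genes). Myc fell less in KO (difference 0.31, 95% interval 0.25 to 0.37, adjusted p = 2.70e-05). Ddit3 changed more in KO (-0.17, adjusted p = 0.023), and this passed no longer in 5 of the 12 fits that left out 1 library (ERT2 WT 2, Cre-ERT2 WT 1 or 2, ERT2 KO 3, Cre-ERT2 KO 2; adjusted p of 0.052 to 0.064). Foxo1 also changed more in KO (-0.18, adjusted p = 0.037), and this passed no longer in 10 of the 12 (all but those without ERT2 WT 2 or Cre-ERT2 KO 3; adjusted p of 0.056 to 0.090) nor with a replicate block (adjusted p = 0.062).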

How the results depend on the processing

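Bcl2 kept its 4 calls at each of the 23 settings, and so did Mcl1 and Bcl2l11 for both KO comparisons. Reversed directions were Bcl2l1 for KO in ERT2 (0.021 with quantile normalization), Bbc3 for KO in Cre-ERT2 (-0.020 with centred libraries, -0.083 with quantile normalization) and Ddit3 for KO in Cre-ERT2 (-0.023 with quantile normalization); the cause was not tested. Members called for β-catenin in WT went from 2 to 1 with a mean of at least 8 (which leaves out Bbc3), an adjusted p under 0.01 or treat. In KO they went from 5 to 3 with the compared libraries alone or an adjusted p under 0.01, and to 1 with treat. With treat, KO against WT kept 3 members in ERT2 and 4 in Cre-ERT2. For the difference of effects, a pseudocount of 100 called 1 member (Bcl2, -0.19, adjusted p = 0.045).

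Of all genes, β-catenin in WT called 1443, against 787 at 0.01 and 168 with treat. In KO it called 1531, against 934 with the compared libraries alone, 790 at 0.01 and 229 with treat. KO against WT called 7175 in ERT2 and 7161 in Cre-ERT2, against 2986 and 3010 with treat. The difference of effects called 550, against 337 with a mean of at least 8, 240 at 0.01 and 81 with treat; it could not be fitted on 2 groups. Leaving out 1 library gave 1 to 2, 3 to 5, 6 to 8, 6 to 8 and 0 to 1 members, 1026 to 1659, 1050 to 1458, 6609 to 7314, 6690 to 7157 and 383 to 595 genes, and 18 to 20 ratio tests without overlap.

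Leaving out 1 library also turned the sign of changes that had not passed. For β-catenin in WT the ranges were -0.065 to 0.028 (Bak1), -0.026 to 0.0037 (Bcl2l11) and -0.041 to 0.017 (Foxo1), and in KO -0.031 to 0.018 (Bak1), -0.042 to 0.014 (Bad) and -0.024 to 0.060 (Bnip3l). For KO against WT they were -0.044 to 0.0072 (Bcl2l1 in ERT2), -0.0044 to 0.033 (Bbc3 in Cre-ERT2) and -0.043 to 0.013 (Bad in Cre-ERT2), and for the difference of effects -0.037 to 0.056 (Bak1), -0.0027 to 0.053 (Bad) and -0.060 to 0.048 (Bmf). Deviations from group means had r of -0.091 to 0.31 over 18 same-numbered pairs of libraries from different groups. Over 36 pairs with different numbers r was -0.35 to 0.36, so the numbers were not taken as pairs. The widest r joined Cre-ERT2 libraries (WT 1 with KO 1 at 0.31, WT 2 with KO 3 at 0.36, WT 2 with KO 1 at -0.35, WT 1 with KO 3 at -0.33). What these libraries share was not tested. With a replicate block (limma) 2, 4, 7, 8 and 0 members were called. Mcl1 with β-catenin in KO (adjusted p = 0.051) and Bax for KO in ERT2 (adjusted p = 0.051) no longer passed, and Bcl2l1 for KO in Cre-ERT2 did (adjusted p = 0.021). Depth is unknown, so the precision of low genes cannot be given.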
